A study of Mus musculus with 6 samples.

Results

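Ependymal cells of the hippocampal preparation were taken as the cells that the depositors had placed in their class Ependyma, which held 193 of the 12823 cells in the table (1.51%). The cells came from 6 mice of the strain B6.Cg-Tg(APPswe,PSEN1dE9)85Dbo/Mmjax, called APP/PS1, which carries the APPswe and PSEN1dE9 transgenes, mutant forms of genes linked to familial Alzheimer's disease. Per the labels, 3 mice were given an antisense oligonucleotide (ASO) and 3 were given phosphate buffered saline (PBS), and all 6 were labelled as 10 weeks old, with no statement of when treatment began. ASO replicates 1, 2 and 3 held 40, 56 and 21 of these cells, and PBS replicates 1, 2 and 3 held 38, 17 and 21. According to the series title, the treatment was meant to reduce IDOL, the ubiquitin ligase encoded by Mylip, and the comparison of ASO with PBS mice addresses what that treatment did. No control oligonucleotide was given to the PBS mice, every mouse carried the transgenes, and the tissue was the whole dissociated hippocampus. Whole cells were profiled by Drop-Seq, which captures cells on barcoded beads in droplets and counts each transcript at its 3' end by a unique molecular identifier (UMI).

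Ependymal cells line the cerebral ventricles as a single ciliated sheet. Most carry a tuft of motile cilia, whose beat moves cerebrospinal fluid along the wall. A motile cilium is built on an axoneme of microtubule doublets bent by dynein motors, which are timed by radial spokes, a central pair of microtubules and the nexin-dynein regulatory complex. The forkhead factor FOXJ1 and the RFX factors switch on the genes of these parts, and intraflagellar transport carries the parts into the cilium.

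Scrublet, which calls droplets that resemble a mixture of 2 cells, called 5 ependymal cells, and 188 were kept (113 from ASO mice and 75 from PBS mice) among 12616 cells in all. The kept cells held 234736 UMIs, from 652 to 1995 per cell. Their summed UMIs were 51659, 65891 and 27165 in ASO mice and 44447, 19640 and 25934 in PBS mice. At these depths 3 counts corresponded to 45.5 to 110.4 CPM (counts scaled to a common library total) in ASO mice and 67.5 to 152.7 CPM in PBS mice, which is the level that a count of 0 allows, for counting error only. Levels below are CPM of all UMIs, and a mean is over the mice stated, with its SD (n = 6 joins ASO and PBS mice). Because each transcript is counted at its 3' end, levels of different genes were not divided by length. Of all barcodes, 8 were found in more than 1 library. Of the kept ependymal cells, 2 carried such a barcode, and the results without them are given beside the comparisons.

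The deposited class held the marker genes of ependymal cells. Since the class was built from these cells, this describes it and is no test of it. Each of the 188 cells held a UMI of at least 1 of 6 marker genes: 6 cells had 1, 21 had 2, 32 had 3, 67 had 4, 45 had 5 and 17 had all 6. Among the 12428 kept cells of other classes, 11961 held none, 454 held 1, 13 held 2 and 0 held 3 or more. The median depth was 850 UMIs in the 6 ependymal cells with a single marker and 1539 UMIs in the 17 with all 6, so the number detected moved with depth.

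Ccdc153, which encodes a protein of the nexin-dynein regulatory complex and lies on chr9:44240676-44247306 (GRCm38, plus strand), had 2729, 2216 and 2135 CPM in ASO mice and 2047, 1782 and 2429 CPM in PBS mice, against a mean of 2.70 CPM in all other cells. Tmem212, a membrane protein gene on chr3:27866066-27896368 (minus strand), had 2149, 2443 and 1730 CPM in ASO mice and 1642, 2037 and 1619 CPM in PBS mice. The ASO and PBS mice overlapped for both genes, and every mouse was more than 100 times above the mean of the other cells. Dynlrb2 (chr8:116504974-116515915, plus strand), a dynein light chain, averaged 991 ± 229 CPM (SD, n = 6), and 119.3 CPM in choroid plexus cells. Foxj1, the regulator of motile ciliogenesis (chr11:116330704-116335399, minus strand), averaged 720.4 ± 170.1 CPM (SD, n = 6). Rarres2, which encodes the secreted chemoattractant chemerin (chr6:48569696-48572789, minus strand), averaged 683 ± 144 CPM (SD, n = 6), and 1110017D15Rik, on chr4:41505009-41517333 (minus strand), averaged 405 ± 94.1 CPM (SD, n = 6). The 6 genes were above their level in every other class.

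**Figure D1:**
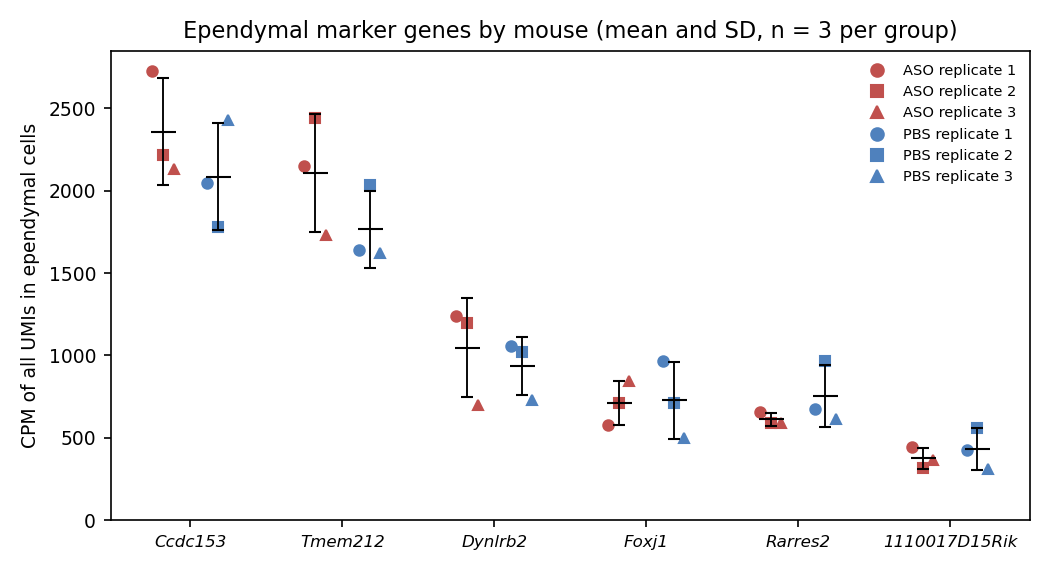
CPM of all UMIs of the 6 marker genes in the ependymal cells of each mouse, ASO mice left of PBS mice, with bars for the mean and SD of 3 mice. Tmem212, from 1619 to 2443 CPM, and Ccdc153, from 1782 to 2729 CPM, are the highest, and the groups overlap for all 6 genes.

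Shares of cells with a UMI were compared after thinning every cell to 569 UMIs, the smallest number in any cell. Ccdc153 was then detected in 72.3% of ependymal cells and 0.2% of oligodendrocytes, and Tmem212 in 68.6% and 0.133%. Dynlrb2 was detected in 47.3% of ependymal cells and 0.267% of oligodendrocytes, Rarres2 in 30.9% and 0.1%, and 1110017D15Rik in 22.3% and 0.0667%. Foxj1 was detected in 30.3% of ependymal cells and 2.33% of oligodendrocytes. Without thinning the ependymal shares were 89.9% for Ccdc153, 86.2% for Tmem212, 69.7% for Dynlrb2, 53.2% for Rarres2, 38.8% for 1110017D15Rik and 55.3% for Foxj1, at median depths of 1189 UMIs in ependymal cells and 1037 UMIs in oligodendrocytes. Foxj1 was the marker with the most UMIs outside the class in a single other cell type, a ranking that also depends on the number of cells. It had 131 UMIs in 126 of 3000 oligodendrocytes, against 3 of 1877 astrocytes, 0 of 460 mural cells and 3 of 39 choroid plexus cells. Per mouse the oligodendrocyte share was 6.47%, 5.20% and 4.46% in ASO mice and 2.86%, 2.88% and 1.63% in PBS mice. This difference between the groups was not tested. The other 5 markers were at 0.0667% to 0.267% in the same oligodendrocytes after thinning. Some thinned shares were higher in smaller classes: Dynlrb2 was in 10.3% and Foxj1 in 2.56% of choroid plexus cells (4 and 1 of 39). Rarres2 was in 4.35% of mural cells.

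Genes with the largest ratio of their level in ependymal cells to that in all other cells describe how the class was built, and the ratio was not tested. Among genes of at least 100 CPM, 3300002A11Rik had 66 UMIs in the 188 ependymal cells and 3 in the 12428 others. It is annotated as antisense to Foxn3, and since no source used here says whether counting used strand, reads of the pair cannot be told apart. Sntn, which encodes the ciliary tip protein sentan, had 110 UMIs in ependymal cells and 7 elsewhere, at 426, 501 and 479 CPM in ASO mice and 405, 611 and 463 CPM in PBS mice. Sntn stayed within 405 to 611 CPM in all 6 mice, with the groups overlapping. Fam216b had 70 UMIs in ependymal cells and 7 elsewhere, Stoml3 (a stomatin family gene) 73 and 9, Cdhr4 (a cadherin-related gene) 59 and 11, and Dnali1 (a light intermediate chain of axonemal inner dynein arms) 100 and 16. The keratin gene Krt15 had 41 and 7, and the annexin gene Anxa8 33 and 2. The other members of the first 20 by this ratio were Ccdc153 and Tmem212, already described, with Ccdc121, Gm11721, 1700016K19Rik, 1700024G13Rik, Fam166b, Got1l1, Ccdc33, Gm17455, 4930451C15Rik (the current symbol is Lrrc74b) and 1700012B09Rik. The lowest ratio among the 20 was 286 (Cdhr4).

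Promoters of 4 genes of the ciliary program are shown because the 4 genes were high in the same cells. Of these promoters, 2 hold exact matches to short motifs that ciliary transcription factors are known to read. They are from RefSeq on GRCm38.p6, from 250 bases before to 50 bases after the start: Ccdc153 (chr9:44240427-44240726, plus strand), Tmem212 (chr3:27896319-27896618, minus strand), Sntn (chr14:13670626-13670925, plus strand) and Tekt1 (chr11:72361833-72362132, minus strand), each written 5' to 3' on the strand of its gene. Capitals mark a match on either strand to TGTTTAC, a forkhead motif, or to GTTGCCA, the core of the X-box bound by RFX factors.
Ccdc153: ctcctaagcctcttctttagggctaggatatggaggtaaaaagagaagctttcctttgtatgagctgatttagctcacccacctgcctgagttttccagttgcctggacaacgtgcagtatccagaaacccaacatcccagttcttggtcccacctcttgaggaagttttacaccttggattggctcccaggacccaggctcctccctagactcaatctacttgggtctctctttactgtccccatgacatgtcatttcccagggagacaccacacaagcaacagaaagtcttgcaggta
Tmem212: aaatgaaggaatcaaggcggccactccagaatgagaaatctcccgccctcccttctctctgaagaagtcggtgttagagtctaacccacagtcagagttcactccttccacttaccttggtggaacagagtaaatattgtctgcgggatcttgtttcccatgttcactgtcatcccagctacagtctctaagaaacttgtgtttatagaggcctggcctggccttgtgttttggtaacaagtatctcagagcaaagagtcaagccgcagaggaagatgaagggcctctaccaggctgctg
Sntn: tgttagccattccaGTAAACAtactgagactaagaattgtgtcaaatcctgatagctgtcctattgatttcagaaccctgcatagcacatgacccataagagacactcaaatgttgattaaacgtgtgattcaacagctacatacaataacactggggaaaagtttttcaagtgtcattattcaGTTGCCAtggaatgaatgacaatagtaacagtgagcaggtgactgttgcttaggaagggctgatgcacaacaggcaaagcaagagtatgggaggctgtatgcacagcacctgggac
Tekt1: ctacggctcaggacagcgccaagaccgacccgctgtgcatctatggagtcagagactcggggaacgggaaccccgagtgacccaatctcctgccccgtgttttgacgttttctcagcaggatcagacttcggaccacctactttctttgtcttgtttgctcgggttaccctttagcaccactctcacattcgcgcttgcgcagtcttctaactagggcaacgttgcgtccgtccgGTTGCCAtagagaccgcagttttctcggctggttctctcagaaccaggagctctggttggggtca
The Sntn promoter held the forkhead letters on the minus strand, 236 to 230 bases before the start, and the X-box core on the plus strand, 66 to 60 bases before it. The Tekt1 promoter, of a tektin gene at 200 ± 129 CPM (SD, n = 6), held the X-box core 15 to 9 bases before the start. Neither exact set of letters was in the windows of Ccdc153 and Tmem212. Looser forms of the motifs were not searched, so a variant site in these windows would not be marked.

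The X-box core was in 26 of 109 promoters of the motile cilium genes listed below (23.9%, from 98 genes with an entry), and in 4.38% of all 32851 promoters in the RefSeq table. The forkhead letters were in 3 of the 109 (2.75%) and in 3.65% of all promoters. Among the first 20 genes by ratio, 14 had an entry, and the forkhead letters were in 4 of their 15 promoters and the X-box core in 1. The 2 motifs do not overlap each other. A match describes letters in this window only.

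Motile cilium genes were high as a group in the class. Of 121 genes in 7 lists, 118 had a UMI in ependymal cells and 98 were above their level in every other class. Their summed level was 31437, 27454 and 27167 CPM in ASO mice and 28101, 26222 and 25218 CPM in PBS mice, against 5047 CPM in choroid plexus cells, 2444 CPM in astrocytes, and 2428 CPM over all cells outside the class. The 6 mice lay within 25218 to 31437 CPM, the groups overlapped, and the highest was ASO replicate 1.

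Axonemal dyneins, the motors and their chains, summed to 5482 ± 635 CPM (SD, n = 6) in ependymal cells and 237 CPM in all other cells, and 18 of 19 genes were above every other class. Dnah6, a heavy chain of inner arms, had 445, 531 and 663 CPM in ASO mice and 360, 560 and 463 CPM in PBS mice. Dnah12, also an inner arm heavy chain, averaged 480 ± 153 CPM (SD, n = 6) and had its lowest value, 258 CPM, in ASO replicate 3. The exception was Dnah3, at 98.8 CPM in ependymal cells and 209 CPM in endothelial cells. Genes that assemble dynein arms or dock them to the doublets summed to 2323, 2352 and 2503 CPM in ASO mice and 1822, 2240.3 and 1735 CPM in PBS mice, with 15 of 16 above every other class. All 3 ASO mice were above all 3 PBS mice for this sum, as for 5.06% of all genes tested, taken singly. The sum was not tested and was pointed out after its values were seen, and the groups overlapped for the other cilium lists. Of its genes 2 passed the filter on low counts, both higher in ASO mice and neither past the threshold. Ccdc39, which sets the spacing of arms and spokes along the doublet, led them at 312 ± 79.2 CPM (SD, n = 6).

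Radial spoke and central pair genes summed to 5264 ± 458 CPM (SD, n = 6) in ependymal cells and 228 CPM in all other cells, and all 15 in the table were above every other class. The spoke head gene Rsph1 had 1123, 1078 and 920.3 CPM in ASO mice and 877, 764 and 733 CPM in PBS mice. All 3 ASO mice were above all 3 PBS mice for Rsph1, as for 5.06% of all genes tested. Spag16 and Spef2, of the central apparatus, averaged 712 ± 179 and 632 ± 125 CPM (SD, n = 6 each). The nexin-dynein regulatory complex summed to 4544 ± 468 CPM (SD, n = 6), of which Ccdc153 alone gave 2223 ± 326, and 9 of its 11 genes were above every other class.

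Tektins and other proteins of the tubule lumen summed to 4538 ± 648 CPM (SD, n = 6), with 16 of 18 genes above every other class. Enkur, which encodes the tubule inner protein enkurin, had 1355, 865 and 883 CPM in ASO mice and 922, 560.1 and 1041 CPM in PBS mice, so that its lowest and its highest mouse differed by more than 2 times with the groups overlapping. Intraflagellar transport also builds the primary cilia that many other cell types carry. Its genes summed to 4072 ± 235 CPM (SD, n = 6) in ependymal cells, 1262 CPM in choroid plexus cells and 1074 CPM in all other cells, and 20 of 26 were above every other class. Ift74 and Ift81, which together bind tubulin cargo, averaged 344 ± 81.6 and 323.3 ± 73.9 CPM (SD, n = 6 each).

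**Figure D2:**
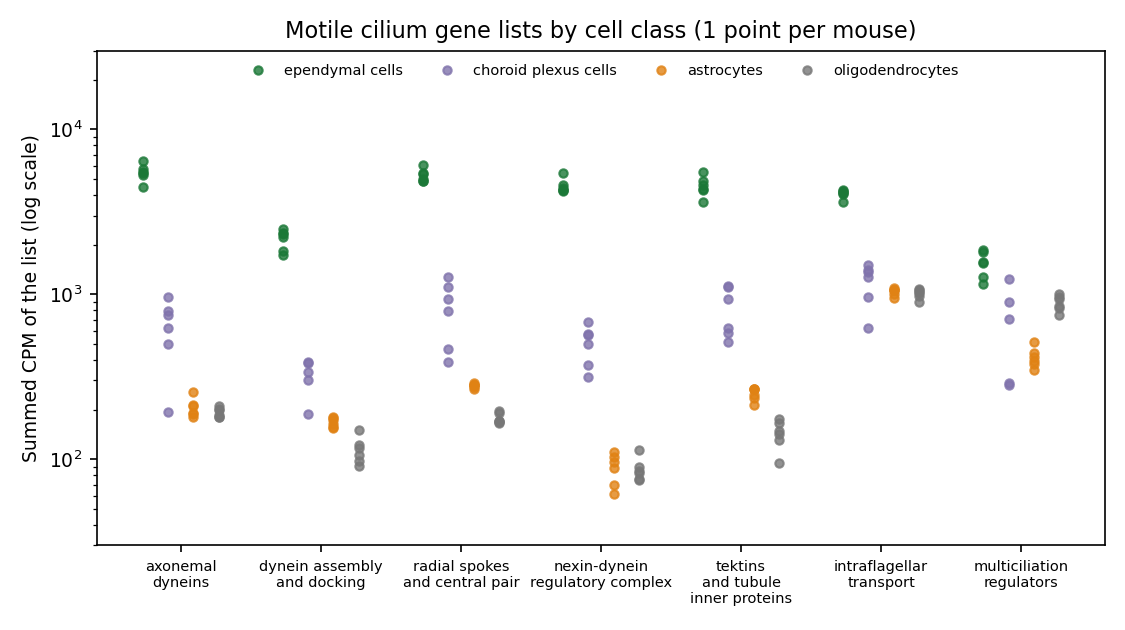
Summed CPM of 7 motile cilium gene lists on a log scale, with 1 point per mouse, for ependymal cells, choroid plexus cells, astrocytes and oligodendrocytes (PBS replicate 3 had 2 choroid plexus cells, with 0 UMIs of the regulators, and that point is not drawn). In ependymal cells each of the first 6 lists lies above every point of the other 3 classes, and the regulators overlap, with ependymal cells of PBS replicate 3 at 1157 CPM and choroid plexus cells of PBS replicate 2 at 1243 CPM.

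Among regulators of multiciliation, only 5 of 16 genes were above every other class, and the list summed to 1536 ± 281 CPM (SD, n = 6) in ependymal cells and 469 CPM in all other cells. Foxj1 was the highest of them. Rfx3, an RFX factor, had 310, 167 and 258 CPM in ASO mice and 135, 102 and 154 CPM in PBS mice, against 537 CPM in dentate neurons. Myb, which acts early in multiciliated cell formation, had 116, 91.1 and 221 CPM in ASO mice and 202, 0 and 0 CPM in PBS mice. PBS replicates 2 and 3, which had 0, were the mice in which 3 counts would be 152.7 and 115.7 CPM. Mcidas and Plk4, which drive the making of new basal bodies, had 0 UMIs, which allows up to 12.8 CPM over all ependymal cells. Cell cycle genes Mki67, Top2a and Cdk1 were at 0 as well. Of the tubulins, Tubb4b, an isotype of axonemes, was the only 1 of 12 above every other class, at 465, 440.1 and 736 CPM in ASO mice and 495, 407 and 231 CPM in PBS mice, against 44.5 CPM in all other cells.

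Ciliary RNA was found in every cell of the class. Of 569 UMIs drawn from each cell, 7 to 29 were of motile cilium genes in ependymal cells, with a median of 16. Medians in the other 16 classes were 1 to 3 and the highest single cell, a Cajal-Retzius neuron, had 10. Only 17 of the 188 ependymal cells had 10 or fewer, and 0 of the 12428 other cells had 11 or more. The median per mouse was 17, 15 and 15.5 in ASO mice and 16, 14 and 14 in PBS mice.

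**Figure D3:**
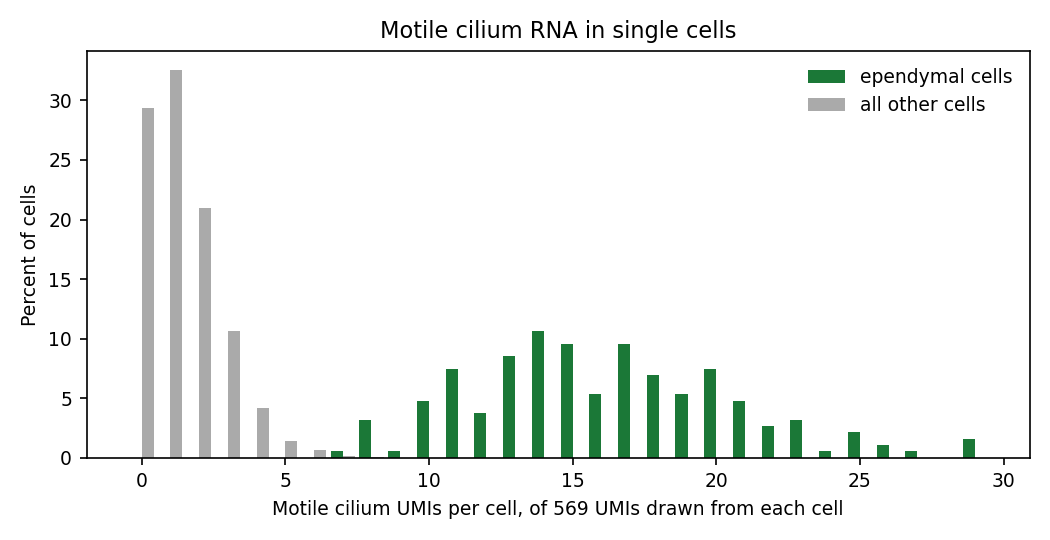
Percent of cells by the number of motile cilium UMIs among 569 UMIs drawn from each cell, for the 188 ependymal cells and the 12428 other cells. Ependymal cells run from 7 to 29 and other cells from 0 to 10, with overlap from 7 to 10.

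Outside the cilium, the most abundant nuclear messenger of known protein was Dbi, which encodes the acyl-CoA binding protein: it had 13492, 16011 and 12001 CPM in ASO mice and 12239, 13951 and 12301 CPM in PBS mice. That was 11.3 times the level in all other cells, and after thinning 98.4% of ependymal cells held a UMI. Astrocytes, the next class, had 3113 CPM. Apoe, which encodes the main apolipoprotein of brain, had 5904, 7877 and 5485 CPM in ASO mice and 7110, 6874 and 6864 CPM in PBS mice, and 16973 CPM in astrocytes. Metallothionein Mt1 averaged 5807 ± 1145 CPM (SD, n = 6) and 8946 CPM in astrocytes. The chaperone clusterin (Clu) averaged 3140 ± 521 CPM and the prion protein gene Prnp 3042 ± 902 CPM (SD, n = 6 each). Whether reads of the transgenes were counted as Prnp was not tested. Myo3a was also among the first 15 at 2882 CPM, with 2728 CPM in all other cells.

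Of 20 genes of the ependymal surface, cytoplasm and secretions, 12 were above every other class. Ak7, an adenylate kinase of motile cilia, averaged 1220 ± 296 CPM in ependymal cells (SD, n = 6) and 6.37 CPM elsewhere. Vim (vimentin) averaged 1941 ± 370.2 CPM, with mural cells close at 1869 CPM. Nnat (neuronatin) averaged 1170 ± 277 CPM and S100a6, a calcium binding protein gene, 935 ± 277 CPM (SD, n = 6 each). The surface sialoglycoprotein gene Cd24a averaged 840.4 ± 280.6 CPM (SD, n = 6) and 9.59 CPM elsewhere. Vcam1, an adhesion gene of the list, had 0 UMIs. Tanycytes are ependymal cells of the hypothalamic ventricle, and 8 of 10 genes of their list had a UMI in these cells, with 0 for Rax and Fndc3c1. The list summed to 521 ± 93.3 CPM (SD, n = 6) in ependymal cells and 259 CPM in all other cells. Its highest member, Scn7a, a sodium channel gene, had 465, 319 and 258 CPM in ASO mice and 202, 306 and 424 CPM in PBS mice, against 5.21 CPM elsewhere.

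Markers of other cell types were detected in ependymal cells, most of them at low levels beside their own class. Astrocyte markers summed to 1683 ± 265 CPM (SD, n = 6) in ependymal cells and 32684 CPM in astrocytes, with UMIs of 8 of 9 genes and 0 for Gjb6. Oligodendrocyte markers summed to 680 ± 169 CPM (SD, n = 6) in ependymal cells and 86642 CPM in oligodendrocytes, with UMIs of all 7 genes. Mural markers (7 of 7 genes with a UMI) summed to 542 ± 318 CPM, and endothelial markers (6 of 7, with 0 for Cldn5) to 122 ± 62.7 CPM (SD, n = 6 each). Precursors of oligodendrocytes had 2 of 6 markers detected, with 0 for Pdgfra, and microglia 5 of 9, with 0 for C1qa, C1qb, Csf1r and Tmem119. Of the choroid plexus genes 11 of 13 were detected, with 0 for Aqp1 and Kcnj13. Most of the microglial sum, 300.3 ± 123.8 CPM (SD, n = 6), was Cx3cr1, the fractalkine receptor gene of microglia, at 348, 243 and 294 CPM in ASO mice and 90.0, 305 and 269.9 CPM in PBS mice. After thinning, Cx3cr1 was detected in 14.4% of ependymal cells, 0.586% of astrocytes and 65.4% of microglia and macrophages, while C1qb was in 0% of ependymal cells and 89.5% of microglia and macrophages. In GENCODE vM21 the Cx3cr1 locus (chr9:119901616-120069879, minus strand) overlaps Ttc21a on the plus strand, whose product is related to an intraflagellar transport protein. Ttc21a had 232, 167 and 147 CPM in ASO mice and 90.0, 102 and 77.1 CPM in PBS mice, against 0.766 CPM in all other cells, and was chosen after its values were seen. No source used here gives the annotation or the use of strand in counting, so transcripts of the 2 loci cannot be told apart.

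Of the mural markers the highest was Acta2, the smooth muscle actin of mural cells, at 561, 364 and 221 CPM in ASO mice and 112, 50.9 and 771 CPM in PBS mice. Both the lowest and the highest value were from PBS mice. Acta2 was detected in 12.8% of thinned ependymal cells, while Rgs5, also of mural cells, was in 1.06% of them. In mural cells the shares were 65.9% for Acta2 and 64.1% for Rgs5.

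Of the choroid plexus genes the highest was Ttr, the transthyretin of choroid plexus, which differed by library. In ependymal cells Ttr was at 2536, 1366 and 6589 CPM in ASO mice and 4365, 9674 and 0 CPM in PBS mice. The median per ependymal cell was 3, 2 and 6 UMIs in ASO mice and 3, 5 and 0 in PBS mice, and in astrocytes of the same libraries it was 3, 2 and 7 in ASO mice and 3, 5 and 0 in PBS mice. The medians of the 2 classes were within 1 UMI in every library. The astrocyte level was 2937, 2009.9 and 6212 CPM in ASO mice and 3023, 4479 and 926 CPM in PBS mice. The ependymal level was lower than this in ASO replicates 1 and 2 and PBS replicate 3, and higher in the other 3 mice. In PBS replicate 3, 1 astrocyte held 293 of the 308 Ttr UMIs of its class. PBS replicate 3 had 0 UMIs in 21 ependymal cells, where 3 counts would be 115.7 CPM. Choroid plexus cells held 258155 to 345198 CPM in ASO mice and 263405 to 345124 CPM in PBS mice. Of the ependymal cells, 4 had more than 20 Ttr UMIs: 61 in a cell of ASO replicate 3, and 43, 32 and 99 in cells of PBS replicates 1, 1 and 2. All ependymal cells of ASO replicate 3 and PBS replicates 1 and 2 held 179, 194 and 190 Ttr UMIs. Without these few cells the ependymal level was below that of astrocytes in ASO replicate 3 and PBS replicate 1, and still above it in PBS replicate 2. The cells with 61 and 43 were the 2 kept ependymal cells whose barcode was found in several libraries. Other choroid plexus genes did not all follow Ttr: 1500015O10Rik, which encodes a secreted augurin precursor, averaged 673 ± 345 CPM (SD, n = 6) in ependymal cells and 49.2 CPM in all other cells.

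**Figure D4:**
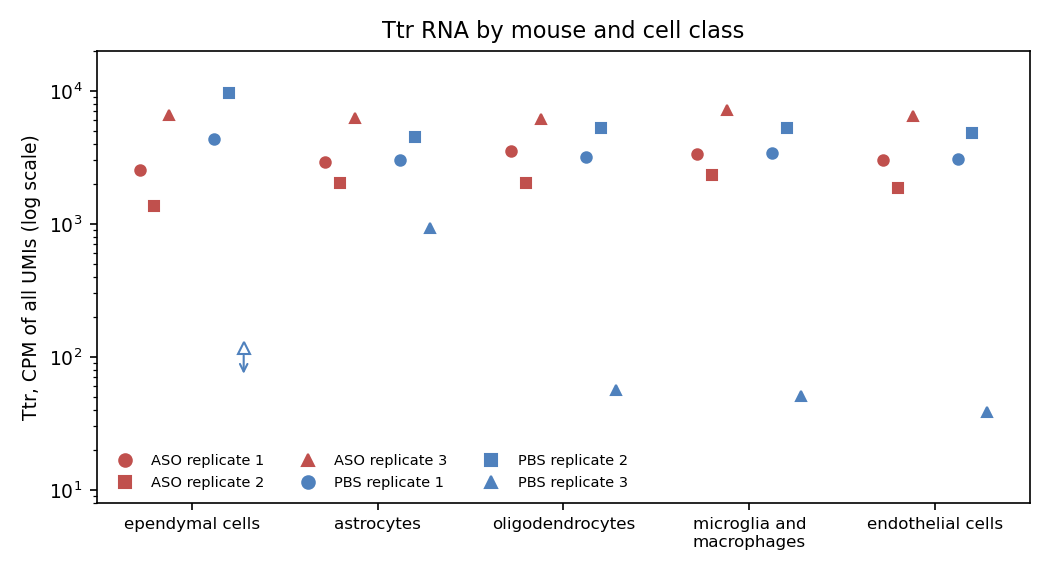
Ttr in CPM of all UMIs on a log scale, by mouse, in ependymal cells and 4 other classes, ASO mice left of PBS mice; the open triangle with an arrow is 0 UMIs, drawn at the level of 3 counts (115.7 CPM). In each class PBS replicate 3 is lowest, and ependymal cells of the other mice run from 1366 to 9674 CPM.

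Genes of the immediate early response and of stress from dissociation were high in ependymal cells. The 22 genes summed to 22629, 24070 and 22897 CPM in ASO mice and 27178, 20163 and 18894 CPM in PBS mice. The median over mice was 22763 CPM in ependymal cells, 22441 CPM in fibroblast-like cells, 20609 CPM in mural cells and 1504 CPM in astrocytes. Hsp90aa1, a heat shock chaperone, led at 6417 ± 1311 CPM (SD, n = 6), and Fos, an immediate early transcription factor, was detected in 76.1% of thinned ependymal cells and 5.49% of astrocytes. When these RNAs arose, in the animal or in the suspension, was not tested.

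The spread between cells of the class was set beside that expected from counting. At low counts, counting makes up most of the spread, so a ratio near 1 does not show that cells were alike. For 303 genes with at least 0.5 UMI per cell on average, the median ratio of the variance within mice to that expected from counting was 1.18, and it was above 1.5 for 48. It was 1.14 for Ccdc153, 1.13 for Foxj1 and 1.05 for Dynlrb2. The largest ratios were 18.7 for Ttr, which ran from 0 to 99 UMIs per cell, and 17.3 for mt-Rnr2, the large ribosomal RNA of mitochondria, which ran from 4 to 233. Behind these came Malat1 at 3.41, Apoe at 2.35 and Dbi at 2.29. Further genes above 1.5 were Prnp at 2.25 and Mt1 at 2.04. Genes of the early response were above it as well, among them Dusp1 at 2.13, Fos at 2.02, Fosb at 1.87 and Egr1 at 1.70.

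Ependymal cells made up 1.42%, 2.53% and 1.14% of the kept cells in ASO mice and 2.03%, 0.845% and 0.995% in PBS mice. The mean share was 1.69 ± 0.732% in ASO mice and 1.29 ± 0.646% in PBS mice (SD, n = 3 each), a difference of 0.404 percentage points that was smaller than the spread between mice (exact two-sided permutation test, p = 0.5, where 0.1 is the smallest p that 20 assignments allow). The highest mouse was ASO replicate 2, and without it the difference was -0.0107 percentage points. Without barcodes found in several libraries it was 0.404. A share depends on what the dissection took of the ventricle wall and on which cells survived dissociation, and their part was not tested.

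Mylip, on chr13:45389742-45412022, was not detected in ependymal cells: 0 UMIs were counted in each of the 6 mice, which allows up to 12.8 CPM over the class. The other cells held 729 Mylip UMIs, at a mean of 52.1 CPM, and microglia and macrophages had 273 CPM. An effect of the ASO on its target was therefore not detectable in these cells at this depth. Of the lipoprotein receptors that IDOL is known to mark for degradation, Lrp8 had 252, 167 and 110.4 CPM in ASO mice and 247, 102 and 77.1 CPM in PBS mice, and Vldlr had 19.4, 137 and 73.6 CPM in ASO mice and 22.5, 0 and 0 CPM in PBS mice. The groups overlapped for both. The endocytic receptor megalin (Lrp2) averaged 80.9 ± 55.5 CPM (SD, n = 6) in ependymal cells, above every other class and 6.37 CPM in all other cells.

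No gene in ependymal cells passed the test of ASO against PBS. Summed counts per mouse were compared with edgeR's quasi-likelihood test, which tested 593 genes and called 0 at a Benjamini-Hochberg adjusted p under 0.05 (0%). At an unadjusted p under 0.05 there were 13 genes (2.19%), where DESeq2 had 4 and limma voom 27, each with 0 called. Of the 593 genes, 279 were higher and 314 lower, with a median log2 fold change of -0.02. The 95% interval of a gene's log2 fold change had a median width of 0.75 to either side, and genes with estimates beyond that size were also not called. Without the cells that carried barcodes of several libraries, and without the 4 cells rich in Ttr, 0 genes were called as well.

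The 6 marker genes were split, 3 higher and 3 lower, with a median log2 fold change of 0.01 and a range from -0.28 (Rarres2) to 0.25 (Tmem212). For Foxj1 the fold change was -0.14 ± 0.29 on the log2 scale (SE; adjusted p from edgeR 0.973). Of the 121 motile cilium genes, 32 passed the filter on low counts, 18 higher and 14 lower, with a median of 0.04 against -0.02 for all genes tested. The ASO and PBS mice did not overlap for 4 of the 32, set beside 9.44% of all genes tested. Rsph1, Spag17 (of the central apparatus) and Dnali1 had all ASO mice above all PBS mice, as did 5.06% of all genes tested. Dync2h1, the motor of retrograde intraflagellar transport, had all ASO mice below, as did 4.38%. Dnali1 had 465, 455 and 663 CPM in ASO mice and 315, 356 and 270 CPM in PBS mice, which is 0.68 ± 0.37 on the log2 scale (SE; adjusted p from edgeR 0.958). Dync2h1 had 174, 228 and 294 CPM in ASO mice and 360, 305 and 347 CPM in PBS mice, at -0.65 ± 0.43 (SE).

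The other lists gave no call either. Of 16 stress genes tested, 8 were higher and 8 lower (median 0.01). Of 61 ribosomal protein genes 24 were higher and 37 lower (median -0.03). Of 10 mitochondrially encoded genes, 1 was higher and 9 lower, with a median of -0.35. Beside this, mt-Rnr2 divided by mt-Cytb in ependymal cells was 12.2, 3.34 and 14.4 in ASO mice and 10.1, 5.5 and 15.7 in PBS mice, and in all cells 10.9, 4.49 and 15.9 in ASO mice and 12.9, 7.16 and 16.8 in PBS mice. In each group the ratio was lowest in mouse 2 and highest in mouse 3, in ependymal cells as in all cells. Its part in the mitochondrial values was not tested. The list of amyloid precursor processing had 4 genes tested, 2 higher and 2 lower. Among them App had 755, 911 and 957 CPM in ASO mice and 675, 713 and 578 CPM in PBS mice. That is 0.38 ± 0.28 on the log2 scale (SE, adjusted p from edgeR 0.958). All ASO mice were above all PBS mice for App, as for 5.06% of all genes tested. Whether reads of the APP transgene entered App was not tested. Bace2, a secretase of the same list that was chosen after its values were seen, had 127 ± 67.8 CPM (SD, n = 6) in ependymal cells and 3.84 CPM in all other cells, and did not pass the filter on low counts. Apoe, of the lipid efflux list, was at -0.14 ± 0.29 (SE; adjusted p from edgeR 0.973).

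The genes nearest to the threshold, all at an edgeR adjusted p of 0.958, began with Myo10, an unconventional myosin of filopodia. Myo10 had 155, 228 and 221 CPM in ASO mice and 337, 407 and 540 CPM in PBS mice, a log2 fold change of -1.08 ± 0.41 (SE). Cyr61 (current symbol Ccn1), a matricellular protein gene of the early response, had 1161, 1184 and 1472 CPM in ASO mice and 922, 662 and 617 CPM in PBS mice, at 0.70 ± 0.28 (SE). The groups did not overlap for Myo10 or Cyr61, as for 9.44% of all genes tested. Both genes were picked by their p between these groups, so this is no added support. Hnrnpdl, of an RNA binding protein, was at 1.04 ± 0.44, Rps19, of the small ribosomal subunit, at 0.83 ± 0.39, and Ccdc108 (current symbol Cfap65), a ciliary gene outside the lists, at 0.90 ± 0.42 (SE).

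Plac9b and Plac9a, which are near-identical copies on chr14 and uncertain one by one, were at 0.87 ± 0.33 and 0.67 ± 0.29 (SE). On the lower side, Zcchc18 was at -0.96 ± 0.37, Acadm (fatty acid oxidation in mitochondria) at -0.93 ± 0.46, mt-Nd1 (a mitochondrially encoded subunit of complex I) at -0.63 ± 0.28 and Dmd (dystrophin) at -0.53 ± 0.27 (SE). Cdr1, at -0.77 ± 0.38 (SE), overlaps an antisense gene, and reads of the pair cannot be told apart. The 12 genes kept their direction under every alternative that tested them, which was 13 to 17 alternatives per gene. Not all alternatives were distinct. Asking for at least 1 ependymal cell per mouse repeated the main run, and asking for at least 20 repeated the run without PBS replicate 2. These reuse the counts by which the genes were picked, so the kept direction is no added support.

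**Figure D5:**
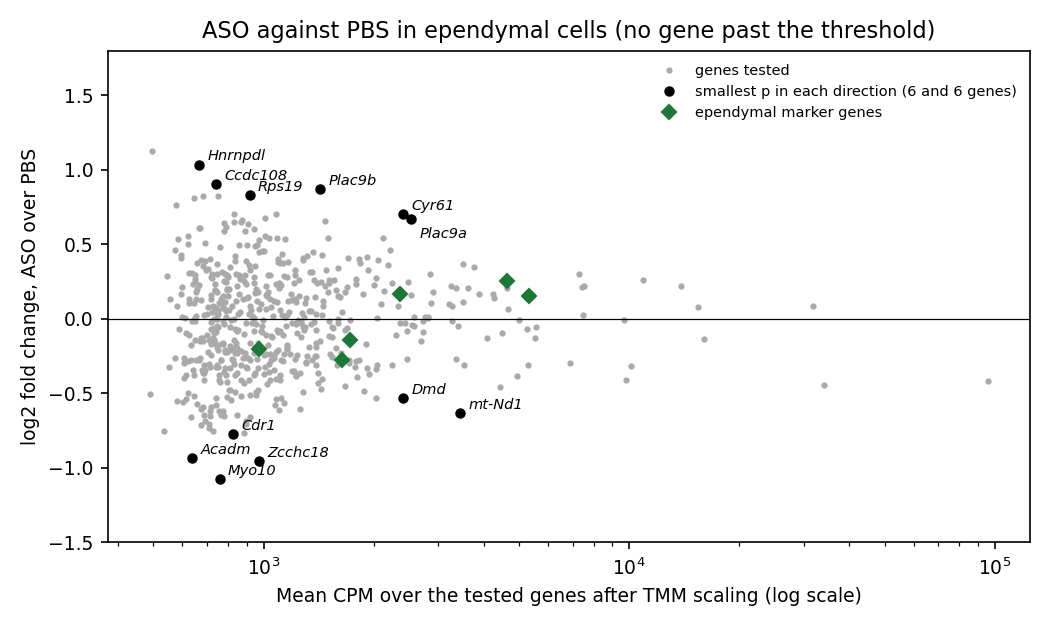
Log2 fold change, ASO over PBS, against mean CPM over the tested genes after TMM scaling (log scale) for the 593 genes tested in ependymal cells; black points are the 6 higher and 6 lower genes of smallest p and green diamonds the 6 marker genes. The marker genes lie between -0.28 and 0.25, and no gene passed the threshold.

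Whether the ASO effect in ependymal cells differed from that in astrocytes, the related glial class, was tested over 5639 genes with an edgeR interaction model that kept the mouse as a block. It called 0 genes (0%), with 229 at an unadjusted p under 0.05 (4.06%) and a lowest adjusted p of 0.997. A gene could pass the filter here by its astrocyte sums, while ependymal sums alone left 593 genes. Slc39a10, among the genes of smallest p, had 13 ependymal UMIs and an SE of 7.55 on the log2 scale. For genes with so few ependymal UMIs the test could hardly call a difference, so the lack of a call says little about them. Genes for which an effect is seen in astrocytes and not in ependymal cells are therefore not shown to differ between them.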

How the data were processed

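Drop-Seq libraries of dissociated hippocampus were analysed from 3 ASO and 3 PBS mice. The authors deposited raw UMI counts, not normalized, whose column names carry the mouse and the cell class. The submitters' processing notes name STAR 2.5.0c, bcl2fastq and the builds GRCm38 and mm10. No source used here names the counting program or annotation. There were 28324 genes. Cells had 569 to 1999 UMIs and at least 501 genes, and no further filter was applied. The members and gene lists were chosen with earlier results of these data known.

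Doublets were called per mouse with Scrublet (scanpy 1.11.5), and 207 of 12823 cells (1.61%) were removed. Replicate numbers follow accession order, and the labels pair no mice. Counts were summed per mouse over ependymal cells. The test between ASO and PBS sums was that of edgeR 4.0.16 (R 4.3.3, filterByExpr, TMM, glmQLFit, glmQLFTest), two-sided, adjusted over all 593 genes tested, with a threshold of 0.05; it was first tested on simulated data. The interaction with astrocytes used sums of both classes. Alternatives were DESeq2 1.42.0 and its size factors, limma 3.58.1 voom, no filter on low counts, doublets kept, stricter cell or marker limits, a replicate block, each mouse left out, and, added after seeing the data, cells with shared barcodes or more than 20 Ttr UMIs left out. Levels against other classes were not tested, since the class was built from these cells. P-values measure the spread between mice.

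Named genes are the 6 markers, the 6 higher and 6 lower genes of smallest p (since fewer than 4 passed), the 20 of largest ratio to other cells among genes of at least 100 CPM, up to 4 of the highest mean CPM per list, Mylip, Vldlr, Lrp8 and Apoe, and the 15 of highest CPM (not all of them reported here); members named because they were at 0, below another class or apart between groups were chosen after their values were seen. Coordinates are of GENCODE vM21 and promoters of RefSeq, both on GRCm38.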

Additional observations from a re-analysis of the deposited data

How the results depend on the processing

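Under every alternative run, 0 genes were called in ependymal cells and 0 in the comparison with astrocytes, also with each mouse left out (0 to 0). The alternatives tested 434 to 14621 genes in ependymal cells and 5639 to 19962 in the comparison with astrocytes, and the lowest adjusted p (edgeR, without PBS replicate 3) was 0.496 and 0.378. With no filter on low counts the median log2 fold change of all genes was 0.26, and 3 genes with a slightly negative value became positive: Foxj1 (0.0764), 1110017D15Rik (0.0081) and Apoe (0.10). Leaving out a mouse gave Foxj1 values from -0.31 to 0.22, the highest without PBS replicate 1. The replicate block, for which the same-numbered mice share only a number (correlations of their deviations were 0.0323, 0.106 and 0.0276), called 0 genes, with 21 at an unadjusted p under 0.05. The difference in the share of ependymal cells was 0.439 with doublets kept, 0.303 for cells of any class with at least 3 markers, 0.479 with no neurons in the denominator, and -0.0107 to 0.775 with a mouse left out, the lowest without ASO replicate 2 and the highest without PBS replicate 1. Without thinning, shares of ependymal cells with a UMI were 89.9% (Ccdc153), 86.2% (Tmem212), 53.2% (Rarres2), 55.3% (Foxj1), 69.7% (Dynlrb2) and 38.8% (1110017D15Rik), above the thinned values because more UMIs were read. The cause of the other changes was not tested. With 17 to 53 cells per mouse, depth limits the comparison: the filter on low counts left 593 genes.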
